A study of Mus musculus with 46 samples.

Results

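The response of mouse embryonic fibroblasts (MEFs) lacking ATF4 to borrelidin was measured by RNA-seq in 23 of the 46 libraries of the study, 12 of them from ATF4 KO cells given borrelidin and 11 from ATF4 KO cells given vehicle. The libraries were chosen by their genotype and treatment labels. Genes are named in 5 segments of the mouse genome (GRCm38), 1 each on chromosomes 4, 6, 9, 15 and 18, because in earlier work on these data the gene identifiers matched the levels of their counts only there. Of the 8221 table entries with enough counts to be tested in these cells, 365 are genes of these segments, 315 of them protein coding, and entries elsewhere are called intervals and are not named. The other 23 libraries come from wild type MEFs with the same 2 treatments.

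The study asked what ATF4 changes in transcription when a tRNA synthetase is inhibited. All 4 groups were grown in the same medium and exposed for 7 h, the treated ones to 600 nM borrelidin in DMSO and the vehicle ones to DMSO alone. The wild type MEFs were purchased, whereas the ATF4 KO line was made in house with CRISPR/Cas9 delivered by electroporation, followed by cell sorting. The replicates of each genotype are thus cultures of 1 line each, so that their spread is not a spread among independent knockouts, and the p-values below measure the spread between these samples. The Atf4 entry lies outside the segments, and its loss was not checked here.

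Borrelidin blocks threonyl-tRNA synthetase, so that uncharged threonine tRNA builds up in the cell. Uncharged tRNA activates the kinase GCN2, which phosphorylates the translation initiation factor eIF2α, lowers general protein synthesis and raises translation of ATF4, the transcription factor of the integrated stress response. ATF4 binds amino acid response elements and switches on amino acid transporters, biosynthetic enzymes and tRNA synthetases.

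Promoter windows of RefSeq (GRCm38.p6, 250 bases before to 50 after each start) were found for 223 of the 365 genes, and 4 motifs were searched in them on both strands. The stretches below are shown because they hold the element through which ATF4 acts, in the gene of borrelidin's own target, an element of interferon-regulated promoters in the gene of RIG-I, and the cAMP response element, bound by factors of the CREB and ATF families, in the genes that rose with borrelidin and had one. Capitals mark the motif, and the sequences run along the strand of the gene.
Tars (chr15:11399636-11399703, minus strand): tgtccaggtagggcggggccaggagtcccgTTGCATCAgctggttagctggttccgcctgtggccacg
Ddx58 (chr4:40239784-40239853, minus strand): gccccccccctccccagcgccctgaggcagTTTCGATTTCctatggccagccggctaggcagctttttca
Aptx (chr4:40703184-40703231, minus strand): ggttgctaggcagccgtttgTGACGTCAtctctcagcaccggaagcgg
Birc2 (chr9:7837065-7837112, minus strand): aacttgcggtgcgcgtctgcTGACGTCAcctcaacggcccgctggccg
Golph3 (chr15:12321413-12321460, plus strand): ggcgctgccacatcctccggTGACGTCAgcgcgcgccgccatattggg
Ing3 (chr6:21949506-21949553, plus strand): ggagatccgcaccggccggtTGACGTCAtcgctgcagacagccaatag
Pot1a (chr6:25809198-25809245, minus strand): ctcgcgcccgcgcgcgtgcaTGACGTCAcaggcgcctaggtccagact
Retreg1 (chr15:25843130-25843177, plus strand): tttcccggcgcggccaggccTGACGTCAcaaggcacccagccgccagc
St7 (chr6:17749149-17749196, plus strand): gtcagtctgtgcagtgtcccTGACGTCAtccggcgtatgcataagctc
Tesk1 (chr4:43442164-43442211, plus strand): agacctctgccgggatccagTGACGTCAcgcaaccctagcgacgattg
Ube2h (chr6:30304536-30304583, minus strand): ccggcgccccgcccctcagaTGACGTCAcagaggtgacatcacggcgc
The amino acid response element TTGCATCA was found in 0.895% of all 32851 windows and, among genes of the segments, in that of Tars alone. The palindrome TGACGTCA was found in 1.79% of all windows, in 9 of the 90 genes with a window that rose, in 1 of 58 that fell and in 1 of 75 that were not called. Shares of all windows are per window and include genes that were not tested. The other counts are per tested gene, and a gene such as Ing3 can have more than 1 window, so that the measures are unlike. The core of the interferon response element, which in Ddx58 is on the other strand, was found in 3.44% of all windows, in 4 of 90 genes that rose, in 3 of 58 that fell and in 5 of 75 not called, and the E2F motif TTTCCCGC was found in 1.07% of all windows and in 2, 0 and 1 of these genes. The log2 fold changes of the 9 genes with the palindrome that rose ran from 0.19 for Birc2, an inhibitor of apoptosis, to 0.52 for Aptx, a DNA end repair enzyme. The 9 genes were picked after their values were seen, no test was made, and a match is a description of letters and not of binding.

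The table holds 2444047 to 3388068 counts per ATF4 KO library (median 3019954), of which 7.89% to 9.40% fell in the segments. Values are given as CPM, counts scaled to a common library total after normalization by the trimmed mean of M values (TMM), which are comparable between libraries but not between genes of unequal length. No 2 libraries of a group agreed within sampling noise, since the chi-square of their counts per degree of freedom was at least 2.16. Replicates 1 to 3 of both ATF4 KO groups stand apart from replicates 4 to 12: with treatment in the fit, 54 genes of the segments were higher and 206 lower in the first set, with a median difference of -0.29 on the log2 scale, whereas over all intervals 2456 were higher and 2704 lower, with a median of -0.015. The labels do not name this split as a batch. It was a term in every fit unless stated, and it holds both treatments, 3 libraries of each in the first set and 8 vehicle and 9 borrelidin libraries in the second.

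Borrelidin changed the expression of many genes in the absence of ATF4. At an adjusted p under 0.05 (edgeR's quasi-likelihood test with Benjamini-Hochberg adjustment over all intervals), 128 of the 365 genes (35.1%) rose, where 24.6% of all intervals rose, and 99 (27.1%) fell, where 25.9% of all intervals fell. The median log2 fold change was 0.05 over the genes of the segments and -0.0035 over all intervals. With scaling by library totals alone, the calls over all intervals turned from 2022 higher and 2127 lower (48.7% higher) to 2628 higher and 1585 lower (62.4% higher), and those of the segments to 160 higher and 79 lower. The gene lists described below are small and were not tested. Some genes, such as Skp2, Trim14 and Rars2, are in more than 1 list, so that the lists are not independent. Their members are genes of the segments, so that their counts stand beside the shares there, 35.1% higher and 27.1% lower. Over all intervals these shares were 24.6% and 25.9%. In bulk RNA, fewer cells with a transcript and less of it per cell cannot be told apart.

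Most of the changes were small. The median size of a called change was 0.39 on the log2 scale with a median SE of 0.061, and 45 genes rose and 27 fell by at least 0.5, together 19.7% of those tested, where 14.8% of all intervals did so in either direction. The called changes ran from -1.53 (Lmod2, a muscle leiomodin of low count) to 1.51 (Tspan33, a tetraspanin at 1.30 to 6.99 CPM with vehicle). Lmod2 was at 0 in borrelidin replicates 2 to 5, 10 and 11 and in vehicle replicate 4. Its other borrelidin libraries, at 3.58 to 5.67 CPM, lay within the vehicle range of 0 to 14.9 CPM. Car8 also split, at 29.9 to 49.8 CPM in vehicle replicates 4, 9, 10 and 12 and borrelidin replicates 2 to 5 and 10 to 12. It was at 0.74 to 2.77 CPM in the rest. Calb1 split between the same libraries, at 21.2 to 32.7 CPM against 1.59 to 6.10 CPM. This split cuts across the library sets and was a term in no fit. Its high libraries are a larger share of the borrelidin than of the vehicle group. The cause of such splits, and their part in the calls, was not tested. At an adjusted p under 1e-10, 12 genes rose and 5 fell, with 0.547% and 0.851% of all intervals called higher and lower at that threshold. These strict counts rest on the design: in edgeR without the term for the library set 0 genes of the segments passed it, although 192 had an unadjusted p under 0.05, and a fit blocked on replicate number left 1, Tmem209. With DESeq2 they were 37 higher and 25 lower. In edgeR they were 6 higher and 2 lower without borrelidin replicates 4 and 5.

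The libraries of both treatments did not overlap in 20 genes of the segments (5.48%), where 2.75% of all intervals did not overlap. In 13 of them every borrelidin library lay above every vehicle library, namely Tmem209, Zfr, Cep126, Osgin2, Mpp7, Rnf19a, Tmem67, Zcchc7, Epc1, Ddx58, Wasl, Nfx1 and Gm28529. In the other 7, Cav2, Cav1, Skp2, Smo, Matn2, Impdh1 and Galnt12, every borrelidin library lay below. Gm28529 overlaps Epc1 on the other strand. Whether counting used strand is not given in the sources used here, so that reads of such pairs cannot be told apart. The same holds, among others, for Creb3 and Tln1, Irf5 and Tnpo3, Tmem67 and Rbm12b2, Trim14 and Nans, Ccne2 and Ints8, Golph3 and 1810049J17Rik, Invs and Tex10, Usp14 and Thoc1, and Dnaja1 and Smu1.

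**Figure D1:**
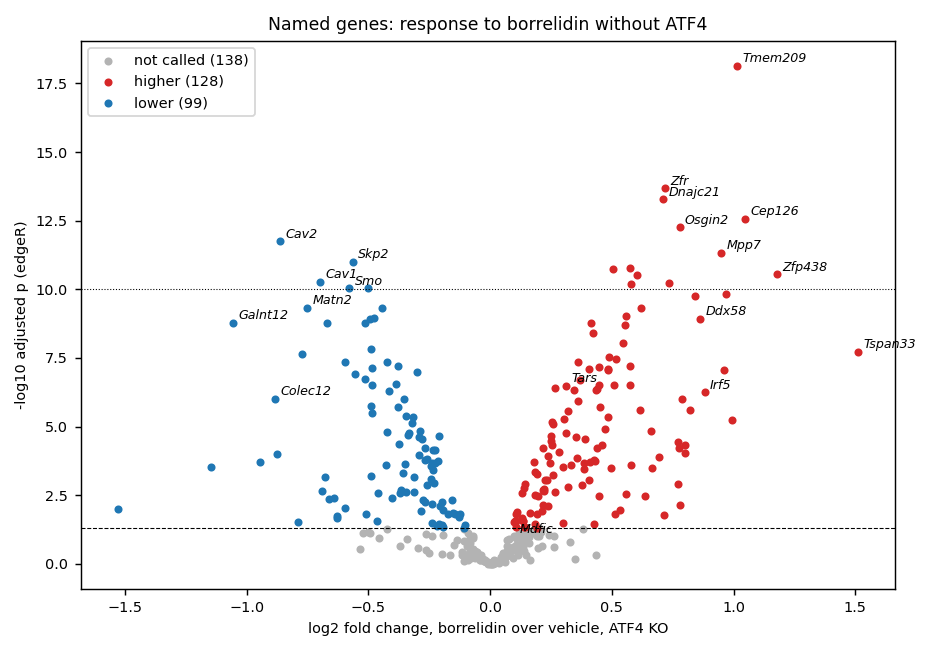
Log2 fold change (borrelidin over vehicle, x axis) against -log10 of edgeR's adjusted p (y axis) of the 365 tested genes of the segments in ATF4 KO MEFs, with 128 higher in red, 99 lower in blue and 138 not called in grey. The dashed line marks an adjusted p of 0.05 and the dotted line 1e-10, and Tmem209 stands highest at a log2 fold change of 1.01.

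The call with the smallest p was Tmem209 (chr6:30479053-30509783, minus strand), a membrane protein of the nuclear envelope found at nuclear pores. Its level ranged from 296 to 384 CPM with vehicle (median 359) and from 552 to 838 CPM with borrelidin (median 744). All borrelidin libraries were above all vehicle libraries, and the log2 fold change was 1.01 ± 0.0385 (SE, adjusted p = 7.1e-19). It was 0.95 in replicates 1 to 3 and 1.06 in replicates 4 to 12. Zc3hc1, which lies near it on chromosome 6 and encodes a protein of the nuclear basket, rose by 0.58 ± 0.0463 (SE, adjusted p = 1.7e-11), from a median of 162 to 249.6 CPM.

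Factors that build ribosomes rose more often than they fell: of 10 tested genes of ribosome assembly, 7 rose and 2 fell, with a median log2 fold change of 0.26. Dnajc21 (chr15:10446756-10470516, minus strand) encodes a J-domain protein needed for late maturation of the large ribosomal subunit. It ranged from 142 to 227 CPM with vehicle (median 194) and from 221 to 362 CPM with borrelidin (median 328). The treatments overlapped across the library sets but not within either of them, replicates 1 to 3 being lower under both, and the log2 fold change was 0.71 ± 0.0435 (SE, adjusted p = 5.3e-14). Brix1 (chr15:10474779-10485947, minus strand), a nucleolar factor of the same subunit whose gene is next to Dnajc21, rose by 0.51 ± 0.0409 (SE, adjusted p = 1.9e-11) and ranged from 281 to 421 CPM with vehicle (median 370.4) and from 387 to 577 CPM with borrelidin (median 544).

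Zfp622, a cytoplasmic maturation factor of the large subunit, rose by 0.73 ± 0.0626 (SE, adjusted p = 5.7e-11), from a median of 287 to 511 CPM. Zcchc7, a subunit of the complex that marks nuclear RNA for the exosome, ranged from 82 to 140.1 CPM with vehicle (median 116) and from 152 to 194 CPM with borrelidin (median 174), without overlap, and rose by 0.62 ± 0.059 (SE, adjusted p = 5e-10). Of the other members, Exosc3, a subunit of that exosome, rose by 0.31 on the log2 scale, whereas the nucleolar protein gene Nol6 fell by 0.48 and the assembly ATPase gene Mdn1 fell by 0.28.

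Genes of mRNA capping, splicing and export also rose more often, with 10 of 14 higher, 2 lower and a median of 0.19. Beside Tmem209 and Zc3hc1, the largest increases in that list were those of the RNA-binding protein genes Rbm12b1, at 0.66, and Rbm12b2, at 0.49, which are neighbouring paralogues whose reads may be shared. Zfr (chr15:12117831-12185683, plus strand), a zinc finger protein that binds double-stranded RNA, belongs to another list, that of ribosomal and translation factors. There 2 of 5 genes rose and 2 fell. Zfr ranged from 370.1 to 534 CPM with vehicle (median 476) and from 547 to 899 CPM with borrelidin (median 837). No library overlapped, and the log2 fold change was 0.72 ± 0.0413 (SE, adjusted p = 2.1e-14). In the list of RNA polymerase II and Mediator, the general coactivator gene Sub1 fell by 0.50 ± 0.0494 (SE, adjusted p = 1.2e-09), from a median of 309.6 to 229 CPM. Polr2k of the same list, a small subunit of RNA polymerases, fell by 0.40.

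Of the genes for aminoacyl-tRNA synthetases and tRNA processing, 4 of 5 rose and 0 fell in edgeR, with a median of 0.41. No member of this list, of the antiviral list or of the chromatin list was lower at an unadjusted p under 0.05, nor by DESeq2 or limma voom. Tars (chr15:11382301-11399665, minus strand), which encodes the cytosolic threonyl-tRNA synthetase that borrelidin inhibits and carries the amino acid response element printed above, ranged from 484 to 702 CPM with vehicle (median 650.0) and from 590.4 to 867 CPM with borrelidin (median 822). The groups overlapped in replicates 1 to 3 but not in replicates 4 to 12, and the log2 fold change was 0.31 ± 0.0424 (SE, adjusted p = 3.3e-07), a 1.24-fold level. Rars2, the mitochondrial arginyl-tRNA synthetase gene, rose by 0.55 ± 0.0604 (SE, adjusted p = 9.4e-09), Rpp25l, an RNase P subunit-like gene, by 0.43, and the tRNA methyltransferase gene Trmt10b by 0.41. Pop1, which encodes a subunit of RNase P, was not called (-0.06).

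**Figure D2:**
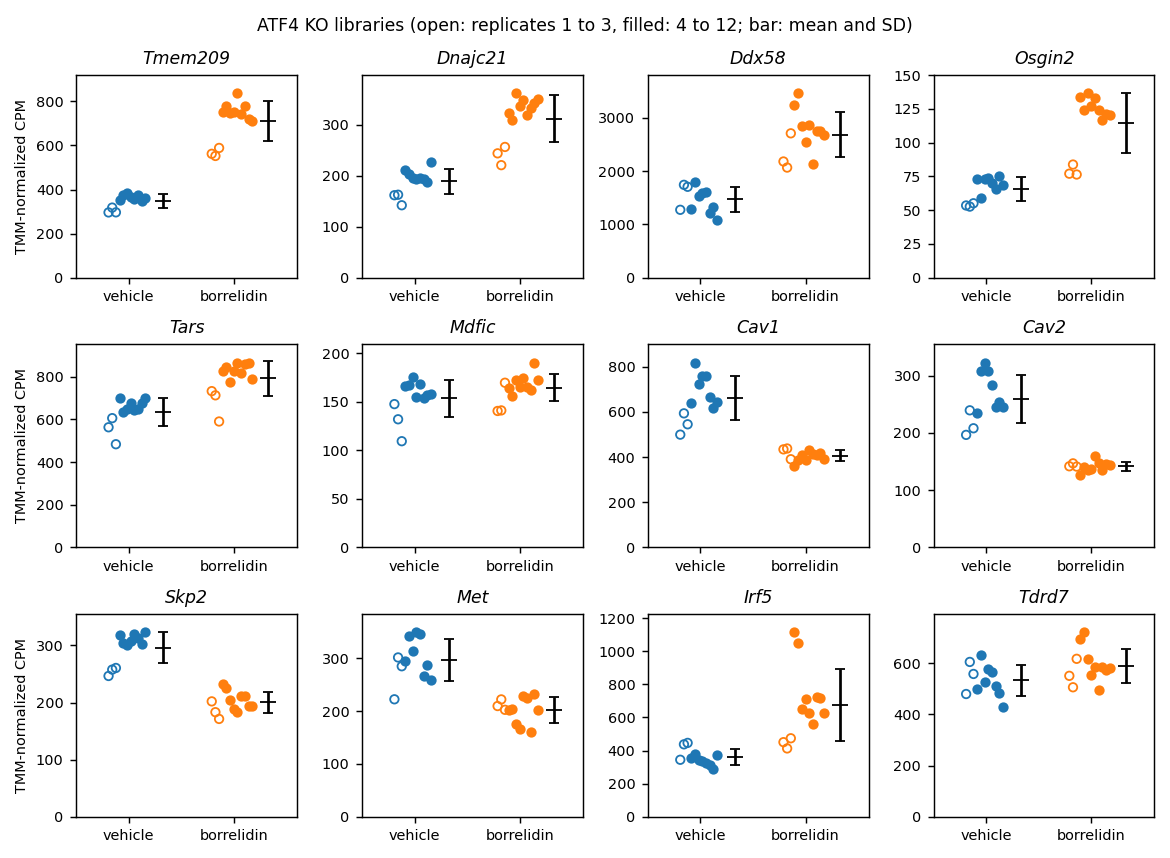
TMM-normalized CPM (y axis) of 12 genes in each ATF4 KO library with vehicle (blue) or borrelidin (orange), with open circles for replicates 1 to 3, filled circles for replicates 4 to 12, and bars for the mean and SD over the 11 or 12 libraries. Tmem209, Ddx58 and Osgin2 lie wholly above the vehicle libraries and Cav1, Cav2 and Skp2 wholly below, and for Irf5 the increase is in the filled circles, 2 of which stand highest.

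Among stress-inducible genes 1 of 7 rose and 2 fell, with a median of -0.05. The gene that rose was Osgin2 (chr4:15997121-16013888, minus strand), a paralogue of a growth inhibitor that oxidative stress induces. It ranged from 52.6 to 75.1 CPM with vehicle (median 68.5) and from 76.4 to 137 CPM with borrelidin (median 123). The groups did not overlap, and the log2 fold change was 0.78 ± 0.0529 (SE, adjusted p = 5.6e-13). Trp53inp1, a p53-induced gene with a part in autophagy, fell by 0.37 ± 0.101 (SE, adjusted p = 0.0027), and its libraries ranged from 31.8 to 64.5 CPM with vehicle (median 49.96) and from 26.6 to 52.6 CPM with borrelidin (median 37.3). Mdfic, an inhibitor of MyoD-family factors, at 0.10 ± 0.0505 (SE, adjusted p = 0.1), and the hypoxia-inducible lipid droplet gene Hilpda, at -0.15 ± 0.0964 (SE, adjusted p = 0.2), were not called.

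Of 13 genes of ER-associated degradation and ER folding, 6 rose and 5 fell, with a median of 0.07. Creb3, an ER-membrane bZIP factor released by proteolysis, ranged from 204 to 338 CPM with vehicle (median 305) and from 274 to 584 CPM with borrelidin (median 474) and rose by 0.60 ± 0.05 (SE, adjusted p = 3.1e-11). Retreg1, an ER-phagy receptor, rose by 0.45 ± 0.0602, whereas Vcp, the segregase that draws ubiquitinated proteins from the ER membrane, fell by 0.30 ± 0.0382 and Asph, an ER hydroxylase, fell by 0.32 ± 0.0503 (SE). Sec61b, a subunit of the ER translocation channel, fell by 0.43.

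Of 20 ubiquitin and UFM1 enzymes 6 were higher and 5 lower, shares near those of all intervals, with a median of 0.10. Rnf19a, a RING-between-RING ubiquitin ligase, ranged from 151 to 179.5 CPM with vehicle (median 171) and from 181 to 312 CPM with borrelidin (median 256), without overlap, and rose by 0.58 ± 0.0498 (SE, adjusted p = 6.6e-11). Usp14, the deubiquitinase bound to the proteasome, fell by 0.21 ± 0.0373 (SE, adjusted p = 2.2e-05). Akirin2, a nuclear protein that takes proteasomes into the nucleus and acts in inflammatory gene expression, rose by 0.50 ± 0.109 (SE, adjusted p = 0.00033). It is not of this list and is counted below among the chromatin regulators. In the autophagy and lysosome list 5 of 13 rose and 1 fell, with a median of 0.13, and they include Plekhf2, an endosomal protein gene, at 0.57 ± 0.0702, and C9orf72, a partner of an autophagy-regulating exchange factor, at 0.44 ± 0.0606 (SE).

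Genes of the RIG-I antiviral pathway and inflammatory caspases had a median of 0.55, with 4 of 6 higher and 0 lower. It was the highest of all lists with every library in the fit, but not without borrelidin replicates 4 and 5, where it was 0.41 and that of the centrosome and cilium list was 0.49. Ddx58 (chr4:40203773-40239828, minus strand) encodes RIG-I, the cytosolic sensor of viral RNA. It ranged from 1085 to 1787 CPM with vehicle (median 1537) and from 2066 to 3464 CPM with borrelidin (median 2725). The groups did not overlap, and the log2 fold change was 0.86 ± 0.086 (SE, adjusted p = 1.2e-09). Trim14, an adaptor of the same pathway, rose by 0.77 ± 0.142 (SE, adjusted p = 3.8e-05) from a median of 52.1 to 87 CPM, and Ripk2, the kinase of NOD receptors, by 0.32 ± 0.0817 (SE, adjusted p = 0.0016).

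Irf5, an interferon regulatory factor, ranged from 286 to 446 CPM with vehicle (median 344) and from 413 to 1116 CPM with borrelidin (median 638) and rose by 0.88 ± 0.123 (SE, adjusted p = 5.6e-07). Its increase differed between the library sets and was 0.17 in replicates 1 to 3 and 1.15 in replicates 4 to 12. Borrelidin replicates 4 and 5 had the highest levels of Irf5, Ddx58, Trim14, Ripk2, Akirin2 and Tdrd7. Without them, which was chosen after the data were seen, the same number of antiviral genes was called, with log2 fold changes of 0.72 for Irf5, 0.79 for Ddx58, 0.62 for Trim14 and 0.20 for Ripk2. Tdrd7, an interferon-induced tudor protein gene, was not called (0.15 ± 0.0633, adjusted p = 0.053).

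The listed markers of blood and immune cells share Irf5 and Casp12 with the antiviral list, so that the 2 lists are not independent. Of the 9 listed markers in the segments, 5 were tested and 4 of these were higher, and their summed level was 408 to 550.4 CPM with vehicle and 502 to 1273 CPM with borrelidin. Irf5 itself made up most of that sum. Cd72, a B cell receptor gene, had means of 87.8 CPM with vehicle and 107 CPM with borrelidin, the B cell factor gene Pax5 9.57 and 16.7 CPM and the chemokine gene Ccl27a 8.08 and 13 CPM, while the caspase gene Casp12 had 20.4 and 17.9 CPM. The chemokine genes Ccl19 and Ccl21a were at 0 in every ATF4 KO library, and Il7r was near 0 (mean 0.0616 CPM with vehicle and 0 with borrelidin). The summed mesenchymal markers were at 5702 to 6334 CPM with vehicle and 4993 to 5937 with borrelidin, while epithelial markers reached 7.28 CPM and liver markers 1.28 CPM at most. The cells are labelled as fibroblasts. The part of other cell types in the result was not tested.

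In NF-kB and TNF signalling 4 of 8 genes rose and 2 fell. The inhibitor of apoptosis genes Birc2 and Birc3, which are neighbours on chromosome 9, moved apart: Birc2 rose by 0.19 ± 0.0649 (SE, adjusted p = 0.015) and Birc3 fell by 0.24 ± 0.0721 (SE, adjusted p = 0.0068). Nfx1, a zinc finger factor, ranged from 487 to 551 CPM with vehicle (median 516) and from 576 to 656 CPM with borrelidin (median 624), without overlap, and rose by only 0.27 ± 0.0363 (SE, adjusted p = 3.8e-07). Birc2 is one of the genes with a cAMP response element printed above and was no longer called without the library set term (adjusted p = 0.098).

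Genes of DNA damage and repair rose in 8 of 10 cases and fell in 1, with a median of 0.29. Nbn, the nibrin subunit of the complex that detects double-strand breaks, ranged from 119.6 to 213 CPM with vehicle (median 205) and from 166 to 305 CPM with borrelidin (median 263) and rose by 0.42 ± 0.0445 (SE, adjusted p = 3.8e-09). Aptx, which removes adenylate from broken DNA ends, rose by 0.52 ± 0.0614 (SE, adjusted p = 3.6e-08), Pot1a, a protein of telomere ends, by 0.45, Mms22l, which acts at stalled replication forks, by 0.37, and the recombination gene Rad54b by 0.36. Over all libraries the ranges of both treatments overlapped in all of these genes. Within either library set those of Nbn, Aptx, Pot1a and Rad54b did not overlap, and those of Mms22l overlapped only in replicates 4 to 12.

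In the cell cycle list 5 of 8 genes fell and 2 rose, with a median of -0.18. Skp2 (chr15:9111985-9155425, minus strand), the F-box protein that targets the inhibitor p27 for degradation before S phase, ranged from 247 to 323 CPM with vehicle (median 304) and from 171 to 233 CPM with borrelidin (median 198). Every borrelidin library was below every vehicle library, and the log2 fold change was -0.56 ± 0.0441 (SE, adjusted p = 9.8e-12). The cyclin Y gene Ccny fell by 0.38 ± 0.0462 and the cyclin E2 gene Ccne2 by 0.35 ± 0.0546 (SE, adjusted p = 4.2e-06), the last of which was not called without the library set term (adjusted p = 0.097).

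The caveolins fell together. Cav2 (chr6:17281185-17289115, plus strand) and Cav1 (chr6:17306335-17341452, plus strand) are neighbouring genes for the coat proteins of caveolae. Cav1 ranged from 499 to 819 CPM with vehicle (median 643) and from 359 to 438 CPM with borrelidin (median 409). Cav2 ranged from 197 to 323 CPM with vehicle (median 246) and from 126 to 159 CPM with borrelidin (median 141). Neither gene's groups overlapped, and the log2 fold changes were -0.70 ± 0.0593 (SE, adjusted p = 5.3e-11) for Cav1 and -0.86 ± 0.0626 (SE, adjusted p = 1.8e-12) for Cav2. Met, the hepatocyte growth factor receptor gene on the same segment, fell by 0.55 ± 0.0706 (SE, adjusted p = 1.2e-07), and it ranged from 223 to 350.0 CPM with vehicle (median 296) and from 159.8 to 232 CPM with borrelidin (median 204), with no overlap within either library set.

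Of the 15 tested genes of the list that holds the caveolins and membrane receptors, 6 fell and 2 rose, with a median of -0.02. Smo (chr6:29735503-29761365, plus strand), the signal transducer of the Hedgehog pathway, ranged from 418 to 649 CPM with vehicle (median 566) and from 309 to 416 CPM with borrelidin (median 363), without overlap, and fell by 0.58 ± 0.0507 (SE, adjusted p = 9.2e-11). Tspan12, a tetraspanin of the frizzled receptor complex, fell by 0.88, whereas the ephrin receptor gene Epha7 rose by 0.69 and the natriuretic peptide clearance receptor gene Npr3 by 0.43.

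Genes of the actin cytoskeleton and adhesion fell in 10 of 20 cases and rose in 5, with a median of -0.18. Tln1, which encodes talin and links integrins to actin, fell by 0.51 ± 0.0671 (SE, adjusted p = 1.8e-07) and ranged from 2516 to 3454 CPM with vehicle (median 3050.4) and from 1642 to 2910.1 CPM with borrelidin (median 2051). The focal adhesion gene Tes fell by 0.51, the junctional gene Jcad by 0.42 and the filamin gene Flnc by 0.42. Against these, Wasl, the activator of branched actin assembly, ranged from 240.2 to 301 CPM with vehicle (median 285) and from 309 to 418 CPM with borrelidin (median 378), without overlap, and rose by 0.41 ± 0.0506 (SE, adjusted p = 8.3e-08), and Basp1, a membrane-bound growth cone protein, rose by 0.55 ± 0.0567 (SE, adjusted p = 2e-09).

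Extracellular matrix genes fell in 4 of 11 cases and rose in 1, with the lowest median of all lists, -0.26. The other 6 were not called, and the median is the value of 1 of these, Adamts12, a gene of low count. Matn2, a filament-forming matrilin, ranged from 46 to 71.2 CPM with vehicle (median 56.8) and from 24.8 to 42 CPM with borrelidin (median 33.5), without overlap, and fell by 0.75 ± 0.0712 (SE, adjusted p = 4.7e-10). The stromelysin gene Mmp10 fell by 1.14 ± 0.248 (SE) at a low level, from a median of 4.73 to 2.03 CPM, and the collectin gene Colec12 by 0.88 ± 0.128 (SE). Reck, a membrane inhibitor of matrix metalloproteinases, rose by 0.51 ± 0.0683 (SE, adjusted p = 3e-07). In the Hippo list, Ywhaz, a phosphoserine-binding adaptor, fell by 0.42 and the coactivator gene Yap1 by 0.24, while the kinase gene Stk3 rose by 0.33.

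Metabolic enzymes fell in 6 of 14 cases and rose in 1, with a median of -0.07. Impdh1 (chr6:29200434-29216364, minus strand), the enzyme of the rate-limiting step of guanine nucleotide synthesis, ranged from 393 to 521 CPM with vehicle (median 455) and from 311 to 369.6 CPM with borrelidin (median 334). The groups did not overlap, and the log2 fold change was -0.44 ± 0.0423 (SE, adjusted p = 5e-10). Pdp1, the phosphatase that activates pyruvate dehydrogenase, fell by 0.48 ± 0.0601 (SE, adjusted p = 7.6e-08). In the glycosylation list 2 of 13 genes rose and 4 fell, among them Galnt12, which starts mucin-type O-glycans and ranged from 31 to 39.7 CPM with vehicle (median 35.1) and from 11.1 to 24.3 CPM with borrelidin (median 15), without overlap, with a log2 fold change of -1.05 ± 0.107 (SE, adjusted p = 1.7e-09).

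Centrosome and cilium genes rose in 6 of 8 cases and fell in 1, with a median of 0.46. Cep126 (chr9:8076461-8134294, minus strand), a centrosomal protein needed for cilium formation, ranged from 42 to 58.4 CPM with vehicle (median 49.2) and from 77.8 to 126 CPM with borrelidin (median 105). The groups did not overlap, and the log2 fold change was 1.05 ± 0.069 (SE, adjusted p = 2.7e-13). Tmem67, the cilium transition zone protein meckelin, rose by 0.84 ± 0.0763 (SE, adjusted p = 1.7e-10), without overlap, and Cep41 and Invs, which also encode proteins of cilia, rose by 0.48 and 0.45.

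Of 7 chromatin regulators 5 rose and 0 fell, with a median of 0.43. Epc1, a scaffold of the NuA4 acetyltransferase complex, ranged from 135 to 182 CPM with vehicle (median 158) and from 191 to 279 CPM with borrelidin (median 229), without overlap, and rose by 0.56 ± 0.0549 (SE, adjusted p = 9.3e-10), and Ing3, a subunit of the same complex, rose by 0.43 ± 0.0599 (SE, adjusted p = 4.7e-07). Of 13 transcription factors 7 rose and 2 fell, with a median of 0.25. The zinc finger gene Zfp438 had the largest increase among them, 1.18 ± 0.0972 (SE, adjusted p = 2.8e-11), at a low level, from 10.1 to 20.1 CPM with vehicle (median 15.9) and from 19.9 to 46.1 CPM with borrelidin (median 37.7). Mpp7, a scaffold protein of cell polarity also on chromosome 18, ranged from 37.8 to 47 CPM with vehicle (median 43.8) and from 60.7 to 100.2 CPM with borrelidin (median 82.4), without overlap, and rose by 0.95 ± 0.0718 (SE, adjusted p = 4.6e-12).

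**Figure D3:**
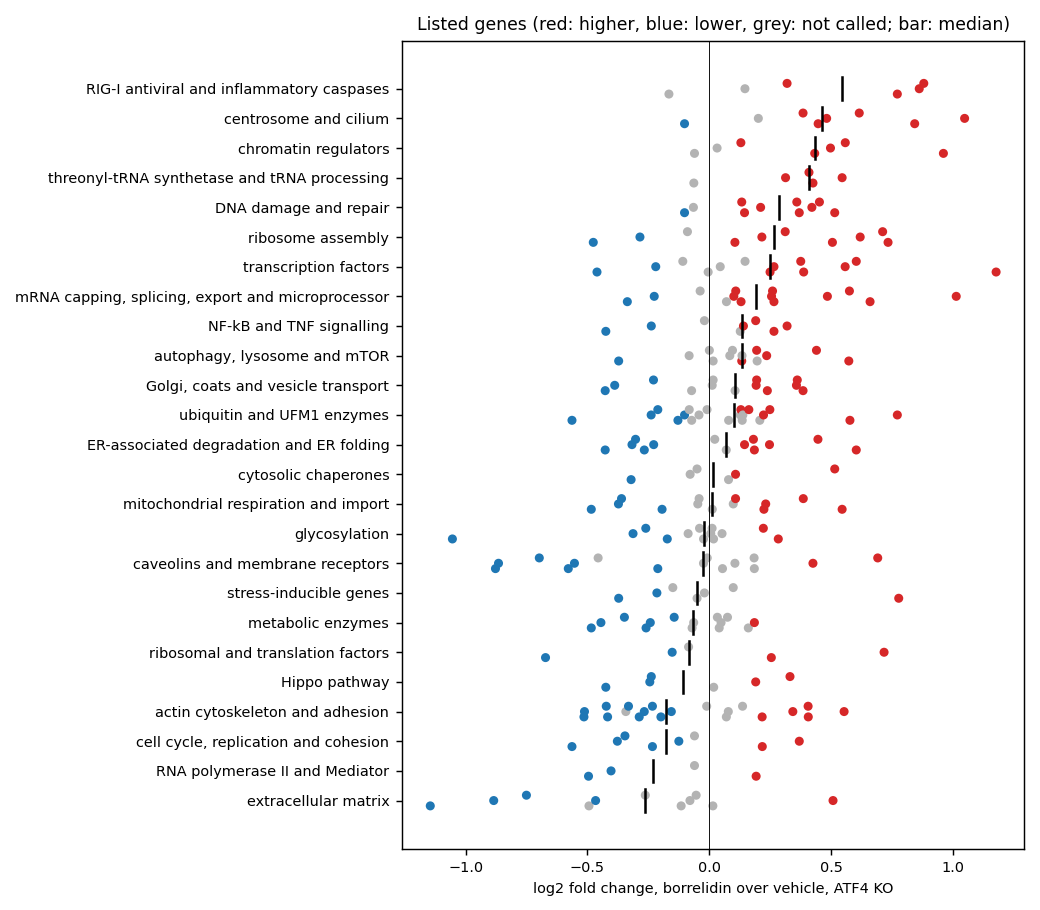
Log2 fold change (x axis, borrelidin over vehicle in ATF4 KO MEFs) of each tested member of 25 gene lists (y axis, ordered by median), with red for higher, blue for lower and grey for not called, and a bar at the median. The medians run from -0.26 for extracellular matrix to 0.55 for the RIG-I antiviral list, beside 0.05 over all 365 genes.

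The response was compared between the library sets by a treatment by set interaction. It was called in 34 of the 365 genes (9.32%, 22 with a higher and 12 with a lower log2 fold change in replicates 1 to 3), where 7.14% of all intervals were called. Of the 227 called genes, 226 could be fitted in both sets, 203 of these had the same sign in both, 213 were called in replicates 4 to 12 alone and 55 in replicates 1 to 3 alone, which hold 6 libraries. In fits of each set alone, Cav1 fell by 0.33 in replicates 1 to 3 and by 0.81 in replicates 4 to 12. The interaction comes from 1 fit of both sets, so that it is not exactly the difference of such values, and it was 0.43 ± 0.109 (SE, adjusted p = 0.014) for Cav1. Irf5 differed by -1.03 ± 0.204 (SE, adjusted p = 0.003) and Colec12, which was -0.11 against -1.18, by 1.02 ± 0.217 (SE, adjusted p = 0.005). Tmem209 (0.95 and 1.06), Dnajc21 (0.67 and 0.74) and Matn2 (-0.64 and -0.77) had no called difference.

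**Figure D4:**
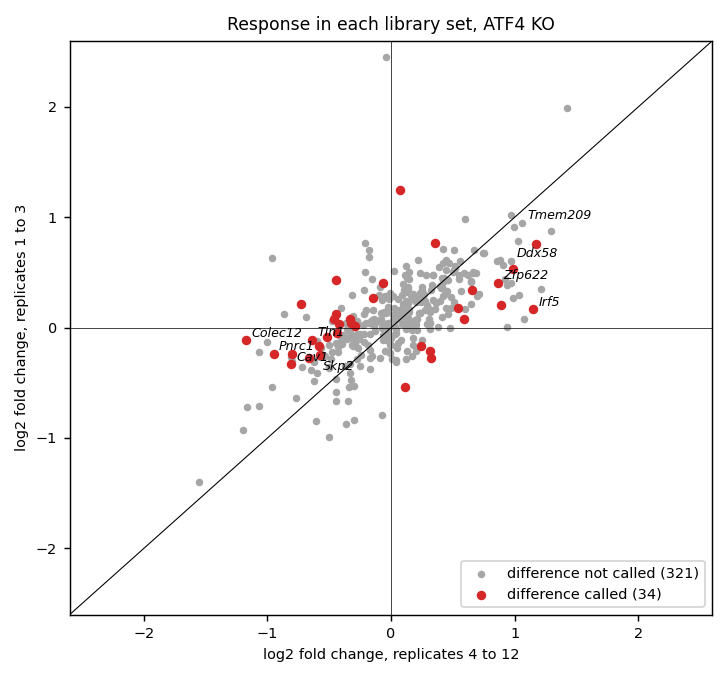
Log2 fold change in replicates 1 to 3 (y axis) against that in replicates 4 to 12 (x axis) for the genes of the segments in ATF4 KO MEFs, with genes in red where the difference between the sets was called, and the line of equal response. Irf5 and Colec12 lie far from the line, whereas Tmem209 lies close to it.

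Set beside wild type MEFs in a fit of all 46 libraries, the response of the cells without ATF4 differed for 118 of 385 genes tested there (30.6%, with 67 higher and 51 lower without ATF4), where 20.4% of all intervals differed. In this fit the wild type comparison leans on the library set term. Replicates 1 to 8 of wild type with vehicle were put in the first set from an earlier analysis of these data, not from a label. All 12 wild type libraries with borrelidin are in the second set, beside only 3 wild type libraries with vehicle. The term takes the shift between the sets as equal in both genotypes, which was not tested. The count over all intervals was 1829 with that term, 3022 without it and 3828 in a fit blocked on replicate number. That block pairs wild type vehicle replicates 1 to 8 with borrelidin libraries of the second set. A shift between the sets thus stays in the wild type response in both alternatives, and the block is no independent check on it. The direction over the genes of the segments also turned, from 67 higher and 51 lower without ATF4 to 58 and 110 without the term and 62 and 135 with the block. Of the 118 genes called, 81 were called in the same direction in all 3 fits, and the sign of 13 turned without the term and of 14 with the block. The 25 genes set beside wild type below were chosen with their values known. Of these 19 were called with the term, 15 of them in the same direction in all 3 fits.

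Tars rose far less without ATF4. In wild type libraries it ranged from 729.9 to 1338 CPM with vehicle (median 816) and from 3006 to 3488 CPM with borrelidin (median 3181), a log2 fold change of 1.51 ± 0.0581 against 0.31 ± 0.0484 without ATF4 (SE), and the difference was -1.20 ± 0.0744 (SE, adjusted p = 2.8e-19). C9orf72 rose by 1.54 ± 0.0831 in wild type and by 0.44 ± 0.069 without ATF4 (SE), and Mdfic by 1.34 ± 0.0681 in wild type against 0.10 ± 0.0561 (SE). The differences were -1.10 ± 0.106 (SE, adjusted p = 3.1e-12) for C9orf72 and -1.24 ± 0.0878 (SE, adjusted p = 5.5e-17) for Mdfic. Osgin2, by contrast, rose in both, by 1.12 ± 0.0852 in wild type and by 0.78 ± 0.0688 without ATF4 (SE), with a difference of -0.33 ± 0.108 (SE, adjusted p = 0.021).

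Trp53inp1 rose in wild type, by 0.83 ± 0.135, and fell without ATF4, by 0.37 ± 0.102 (SE), a difference of -1.21 ± 0.169 (SE, adjusted p = 1.6e-07). Ccny moved in the same way, at 0.35 ± 0.0584 in wild type and -0.38 ± 0.0484 without ATF4 (SE), with a difference of -0.72 ± 0.0759 (SE, adjusted p = 5.6e-11). Hilpda was at 0.38 ± 0.114 and -0.15 ± 0.0961 (SE), with a difference of -0.53 ± 0.148 (SE, adjusted p = 0.007), and Skp2 fell more without ATF4, with a difference of -0.36 ± 0.0701 (SE, adjusted p = 0.00011). Its wild type value was -0.20 ± 0.0533 (SE) and 0.00058 without the set term.

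The antiviral genes went the other way. Ddx58 ranged in wild type from 119 to 309.6 CPM with vehicle (median 245) and from 93.4 to 137 CPM with borrelidin (median 124), a log2 fold change of -0.68 ± 0.147 against 0.89 ± 0.109 without ATF4 (SE), with a difference of 1.56 ± 0.179 (SE, adjusted p = 8.5e-10). Its medians with vehicle were 245 CPM in wild type and 1537 CPM without ATF4, in separate normalizations and with no test made. Trim14 was at -1.50 ± 0.297 in wild type, from a median of 8.99 to 2.71 CPM, and 0.79 ± 0.136 without ATF4 (SE), with a difference of 2.29 ± 0.32 (SE, adjusted p = 1.6e-07). Tdrd7 and Irf5 differed by 0.74 ± 0.0948 (SE, adjusted p = 2.1e-08) and 0.96 ± 0.169 (SE, adjusted p = 1.9e-05).

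The chromatin gene Epc1 and the ligase gene Rnf19a, which rose without ATF4, were at 0.04 ± 0.0658 and -0.04 ± 0.0777 in wild type (SE), with differences of 0.52 ± 0.0832 (SE, adjusted p = 3.7e-06) and 0.62 ± 0.0983 (SE, adjusted p = 2.7e-06). Tspyl5, a nucleosome assembly family gene of low count, differed by 1.75 ± 0.241 (SE, adjusted p = 1.1e-07). For Cav1, Cav2 and Met, which fell in both genotypes (-0.63 ± 0.0788, -0.74 ± 0.0833 and -0.44 ± 0.0964 in wild type, SE), no difference was called in this fit, and the difference was -0.07 ± 0.102 (SE, adjusted p = 0.68) for Cav1, -0.12 ± 0.108 (SE, adjusted p = 0.48) for Cav2 and -0.11 ± 0.126 (SE, adjusted p = 0.59) for Met. With the replicate block, that of Cav2 was called (-0.28, adjusted p = 0.048).

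For 4 further genes the call was lost in at least 1 of the other fits. Tmem209 rose by 0.71 ± 0.0558 in wild type and by 1.02 ± 0.0457 without ATF4 (SE), and Zfr by 0.33 ± 0.0687 and 0.72 ± 0.0564 (SE). The differences were 0.30 ± 0.0706 (SE, adjusted p = 0.0011) for Tmem209 and 0.39 ± 0.0874 (SE, adjusted p = 0.00072) for Zfr, and neither was called in the other fits. Without the set term they were 0.084 (adjusted p = 0.52) and 0.092 (adjusted p = 0.6), and with the block 0.068 (adjusted p = 0.57) and 0.054 (adjusted p = 0.7). Nbn, at -0.09 ± 0.061 in wild type (SE), differed by 0.52 ± 0.0783 (SE, adjusted p = 9.6e-07), and its difference was 0.081 (adjusted p = 0.71) without the term and 0.047 (adjusted p = 0.74) with the block. Creb3, at -0.11 ± 0.073 in wild type (SE), differed by 0.72 ± 0.0919 (SE, adjusted p = 1.5e-08), which was 0.35 (adjusted p = 0.057) without the term and 0.31 (adjusted p = 0.0066) with the block.

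For Zc3hc1, Brix1 and Rars2 no difference was called with the set term, at 0.04 ± 0.0897 (SE, adjusted p = 0.78), 0.04 ± 0.0706 (SE, adjusted p = 0.72) and -0.08 ± 0.108 (SE, adjusted p = 0.65). The first of these turned to -0.48 (adjusted p = 0.065) without the term and -0.59 (adjusted p = 0.0012) with the block. Brix1 turned to -0.27 (adjusted p = 0.098) without the term and -0.31 (adjusted p = 0.015) with the block, and Rars2 was at -0.49 (adjusted p = 0.019) and -0.54 (adjusted p = 0.0018). With the block, which leaves a shift between the library sets in the wild type response, all 3 were thus called lower without ATF4.

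**Figure D5:**
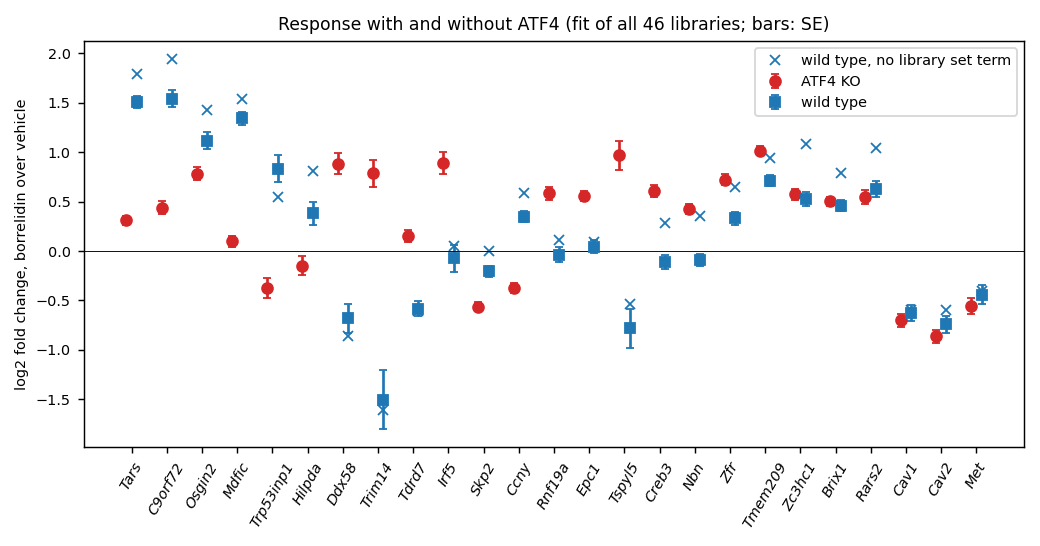
Log2 fold change of borrelidin over vehicle (y axis, with SE) for 25 genes (x axis) in ATF4 KO MEFs (red circles) and wild type MEFs (blue squares) from the fit of all 46 libraries, with crosses for wild type without the library set term. Tars, C9orf72 and Mdfic lie far higher in wild type, and the caveolins and Met lie close together. Ddx58, Trim14 and Tspyl5 are above 0 only without ATF4, as are others such as Rnf19a, Nbn and Creb3.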

How the data were processed

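Total RNA of MEFs of 2 genotypes and 2 treatments gave 46 sequenced libraries, each labelled as a biological replicate. Alignment used HISAT2. The authors deposited the read counts as whole numbers for each gene identifier, neither normalized nor pooled over replicates. For the counting step, HTSeq with build mm10 is named in the submitters' processing notes, whereas the paper's methods mention feature counts. Software versions, the strand setting and the annotation were not given in the sources used here. Of the 55416 entries, 33929 hold a count. The 5 closing rows that name no gene were kept out of library sizes and tests and hold, as a mean over the 46 libraries, 69.0% of reads outside any feature, 10.8% that did not align, 5.09% with low alignment quality, 3.97% with several alignments and 0.251% that were ambiguous.

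Identifiers were placed by GENCODE M21 (GRCm38). Genes are named only in the 5 segments, which hold 1365 entries, 822 with a count in ATF4 KO libraries and 365 that passed edgeR's filterByExpr. In the segments 62.6% of protein-coding entries passed it, elsewhere 27.5%. A gene could pass through the libraries of 1 group alone, which favours a difference. The counts of calls are of tested genes only, and such genes were not marked among them. Genes of low count in 1 group, such as Tspan33 and Mmp10, may be of this kind, which was not checked.

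Counts were fitted with edgeR 4.0.16 in R 4.3.3 (TMM, quasi-likelihood test, Benjamini-Hochberg adjustment over all tested intervals), with treatment and library set as terms, in the 23 ATF4 KO libraries. The SE is the log2 fold change divided by the root of the F statistic. A treatment by set interaction and, in all 46 libraries, a genotype by treatment contrast were fitted in the same way. Alternatives were DESeq2 1.42.0, limma voom 3.58.1, other scaling, no filter, no set term, each set alone and a replicate block. The scripts were tested on simulated data. The members, segments, gene lists and tests were chosen with earlier results of these data known. Genes were named by a rule: the 15 highest and 15 lowest log2 fold changes of called genes whose mean log2 CPM was 3 or more, the 4 members of each list with the smallest p, a short fixed set, and genes that differed between library sets. Further members are named with their values where a list is described, and these and the promoter genes were chosen after their values were seen. Klf4 lies in no segment, and Nr4a3 did not pass the filter.

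Replicate numbers are shared between the groups. Deviations from the group means correlated by 0.167 to 0.759 in the 11 same-numbered pairs, all above 0.1, and by -0.180 to 0.171 once the library set was taken out, with 2 of 11 above 0.1. Only 1 of the 11 vehicle libraries correlated best, by the group means, with the borrelidin library of its own number. The correlations by the group means thus come with the library sets and do not show that the numbers pair single libraries. The block was an alternative. Columns with no sample numbered 0. No permutation or set test was made.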

Additional observations from a re-analysis of the deposited data

Results flagged for a closer look

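The response to borrelidin differed between the library sets, by the interaction test, in 20 of the 84 genes considered for the text. Some of these were named for this very difference, so that the count is not a rate, and the test called 9.32% of the genes of the segments and 7.14% of all intervals. Among genes that rose, the log2 fold change in replicates 1 to 3 minus that in replicates 4 to 12 was -0.46 for Cep126, -0.50 for Zfp622, -0.50 for Tmem67, -0.36 for Epc1, -0.41 for C9orf72, -1.03 for Irf5 and 0.36 for Invs. All but Invs rose less in the first set. Among genes that fell, it was 0.43 for Cav1, 0.35 for Smo, 0.53 for Dap, 0.67 for Pnrc1, 0.49 for Tln1, 0.39 for Jcad, 1.02 for Colec12, 0.41 for Dnaja1, 0.33 for Yap1 and 0.50 for Ints8. Dnaja1, Yap1 and Ints8 did not fall in the first set alone, where they were at 0.030, 0.044 and 0.079 and not called, and the others fell less there. Dap is a death-associated protein gene, Pnrc1 a nuclear receptor coactivator gene and Ints8 a subunit gene of the Integrator complex. Genes not called overall had differences of -0.45 for Fam219a, -0.63 for Zbtb5 and -0.69 for Arhgef39.

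The response differed between genotypes in 19 of the 25 genes set beside wild type. These were chosen with their values known, so that the count is not a rate, and the test called 30.6% of the genes of the segments and 20.4% of all intervals. The log2 fold change without ATF4 minus that in wild type was positive at 1.56 for Ddx58, 2.29 for Trim14, 1.75 for Tspyl5, 0.96 for Irf5, 0.74 for Tdrd7, 0.72 for Creb3, 0.62 for Rnf19a, 0.52 for Epc1, 0.52 for Nbn, 0.39 for Zfr and 0.30 for Tmem209. It was negative at -1.20 for Tars, -1.10 for C9orf72, -1.24 for Mdfic, -1.21 for Trp53inp1, -0.72 for Ccny, -0.53 for Hilpda, -0.36 for Skp2 and -0.33 for Osgin2. Those of Tmem209, Zfr, Nbn and Creb3 were not called without the library set term. Groups of 11 and 12 libraries were not tested for single outlying libraries.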

How the results depend on the processing

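Over all intervals, 2022 were higher and 2127 lower as reported. Under DESeq2, limma voom, both other scalings, no filter, all 46 libraries, replicates 4 to 12 alone and the replicate block these counts and those of the segments stayed within 1.5 times. With the replicate block they were 1792 higher and 1933 lower, and the block changed no call among the 84 genes considered for the text. Borrelidin replicate 11 has no partner and was left out there. The strict counts fell to 2 higher and 4 lower with the block, and were 291 and 399 with DESeq2. Without the library set term 1378 intervals were lower, and Birc2 and Ccne2 lost their calls. At 1e-10, 45 intervals were higher and 70 lower, with 12 and 5 genes of the segments. With a log2 fold change of at least 0.5 they were 595 and 625, with 45 and 27 genes. In replicates 1 to 3 alone, with 6 libraries, 379 were higher and 359 lower, with 47 and 13 genes, and 35 of the 76 called genes of the text lost their call. There the sign turned for Dnaja1 (0.030), Yap1 (0.044), Ints8 (0.079), Fam219a (-0.17) and Zbtb5 (-0.27), and in replicates 4 to 12 alone for Arhgef39 (0.11), and the causes were not tested. The difference between genotypes was called in 1829 intervals, in 3022 without the set term and in 3828 with the replicate block. It reversed without the set term for Zc3hc1 (-0.48) and Brix1 (-0.27), and with the block for both (-0.59 and -0.31). Of the 19 genes named beside wild type for which it was called, 15 kept the call without the term and 16 with the block, while Rars2 gained one in both and Cav2 with the block. Without borrelidin replicates 4 and 5, chosen after the data were seen, Pdzd2 gained a call and no other of the 84 genes changed. Depth limits the precision of genes with few counts, such as Mmp10, Tspan33 and Tspyl5, whose SEs are 0.248, 0.174 and 0.120.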

Other observations

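Of 13 tested mitochondrial genes of respiration and import, 5 rose and 4 fell under borrelidin without ATF4, with a median log2 fold change of 0.01. Over the genes of the segments 35.1% rose and 27.1% fell, and over all intervals 24.6% and 25.9%, so that these counts are near the background. Lyrm2, an assembly factor gene of respiratory complexes, rose by 0.39 and Coq3, of coenzyme Q synthesis, by 0.23, while the cytochrome oxidase subunit gene Cox6c fell by 0.37 and the import channel gene Tomm5 by 0.36. Golgi and vesicle transport genes rose in 6 of 13 cases and fell in 3, with a median of 0.11. Golph3, a Golgi phosphoinositide-binding protein gene, rose by 0.36, and the secreted factor gene Fam3c fell by 0.39. In the list of cytosolic chaperones 2 of 6 genes rose and 1 fell, but those that rose, the DNA end repair gene Aptx and Stoml2, of the mitochondrial inner membrane, are no cytosolic chaperones. Dnaja1, a J-domain partner of Hsp70, fell by 0.32, and Cct5, a subunit of the chaperonin for actin and tubulin, was at 0.08 and not called. RNA polymerase II and Mediator genes rose in 1 of 4 cases and fell in 2, with a median of -0.23, and ribosomal and translation factor genes rose in 2 of 5 cases and fell in 2, with a median of -0.08.

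Gem, a small GTPase of low level that ranged from 9.15 to 19 CPM with vehicle and from 7.18 to 40.9 CPM with borrelidin, rose by 0.99 on the log2 scale (adjusted p = 6e-06, edgeR). Neural markers of the segments summed to at most 47.1 CPM in any ATF4 KO library.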
